A study of Mus musculus with 4 samples.

Results

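The insulin-like growth factor (IGF) axis was described in epididymal fat through 10 genes chosen by name: the ligands Igf1 and Igf2, the receptors Igf1r and Igf2r, and the binding proteins Igfbp2, Igfbp3, Igfbp4, Igfbp5, Igfbp6 and Igfbp7. All 10 were found among the 39179 genes of the deposited table, each in a single row. Polyadenylated RNA was sequenced from the fat pad that lies along the epididymis of male mice, in 2 libraries of wild-type mice (WT, Nck2+/+) and 2 of mice lacking Nck2 by their labels (KO, Nck2-/-, with the genotype label Nck2 mutant). All 4 came from mice of a mixed genetic background. The age of the mice and the part of Nck2 that was altered are not given in the sources used here, nor is whether each library is a different animal. The p-values therefore measure only the spread between these samples, which may be technical. NCK2 is an adaptor that couples tyrosine-phosphorylated proteins to regulators of actin.

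IGF1 and IGF2 are small secreted hormones that resemble insulin. Both signal through IGF1R, a receptor tyrosine kinase, whereas IGF2R, also the cation-independent mannose-6-phosphate receptor, takes IGF2 into the cell for breakdown. The binding proteins hold most IGF in tissue fluid and plasma, extend its life and keep it from the receptor until a protease cuts them. IGFBP7 resembles them but binds IGF only weakly. Fat tissue makes IGF1 and several binding proteins, and IGF1 promotes the maturation of fat cell precursors.

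In the KO libraries 2 of the 10 genes rose, Igfbp4 and Igfbp5, and 4 fell, Igf1r, Igfbp2, Igfbp3 and Igfbp7. The ligands, Igf2r and Igfbp6 did not pass the test. A gene was called at a Benjamini-Hochberg adjusted p under 0.05 in limma, over the 16710 genes whose normalized counts averaged 10 or more, and all 10 members were tested. Over all tested genes 46.7% were called, 22.4% higher and 24.4% lower, so a call is common in this comparison and nothing particular to the members is read from 6 of 10. The KO pair did not overlap the WT pair for the same 6 members, against 79.5% of all tested genes. The median log2 fold change of the members was 0.11, against -0.01 over all tested genes. With 2 libraries per group an exact two-sided permutation test of a single gene cannot go below p = 0.333, so the model across all genes was used. The authors' deposited table called the same 6 members in the same directions, where 18.8% of its genes with an adjusted p were higher and 21.7% lower. Its log2 fold changes for these ran from -2.45 for Igfbp2 (SE 0.543) to 1.24 for Igfbp4 (SE 0.139).

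**Figure D1:**
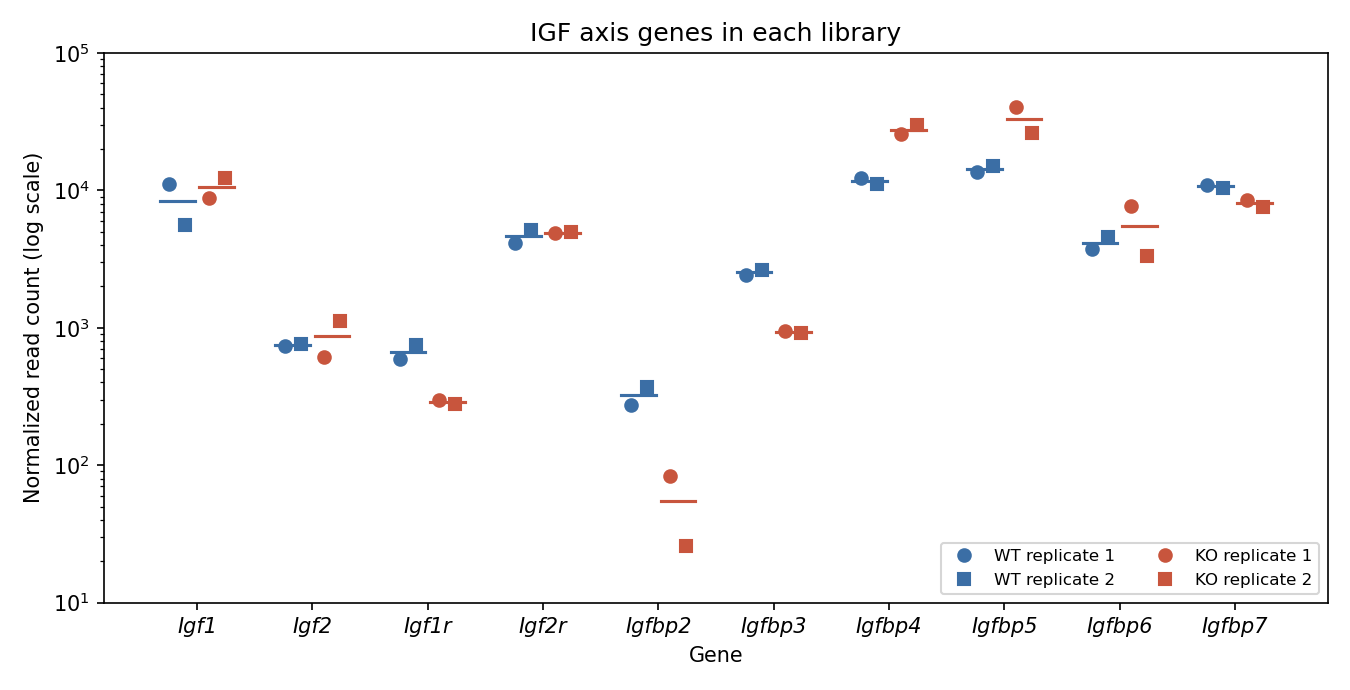
Normalized read count of each of the 10 genes (x axis) on a log scale (y axis), 1 point per library and a line at the mean of each group. The KO points lie above the WT points for Igfbp4 and Igfbp5, below them for Igf1r, Igfbp2, Igfbp3 and Igfbp7, and overlap them for the other 4 genes.

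The libraries held 31831904 to 37980391 reads assigned to genes. Nck2 had WT values of 1279 and 1667 normalized counts and KO values of 1076 and 947 (adjusted p = 0.0509), a total over the gene that does not check which part was altered. The labelled tissue was checked against marker lists, and all 16 mature adipocyte markers were detected in it. They took 1.82% and 2.61% of WT reads and 5.82% and 6.21% of KO reads, and 12 rose and 0 fell, with a median log2 fold change of 1.66. Markers of the epididymis and male tract took 1.08% and 1.23% of WT reads and 0.000289% and 0.000342% of KO reads. Crisp1 made up most of these in WT, with 343811 of 398840 normalized counts in replicate 1 and 334537 of 343573 in replicate 2. Of the male tract markers, 7 of 12 tested fell. Of the 16 listed, 8 had 0 reads in both KO libraries, Gpx5, Lcn5 and Svs4 among them. The WT libraries did not carry these alike. In WT replicates 1 and 2, Svs4 held 11735 and 6.5 normalized counts and Gpx5 held 12.2 and 206.5. Smooth muscle markers took 1.67% and 2.25% of WT reads and 0.0868% and 0.0989% of KO reads, and 9 of 10 fell. The part of this difference in tissue content in the results below was not tested. In a bulk sample fewer cells of a type and less RNA per cell cannot be told apart.

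Igf1, on chromosome 10 (GRCm38, 87858265 to 87937042, plus strand), had WT values of 11195 and 5584 normalized counts and KO values of 8763 and 12292. The groups overlapped, and WT replicate 2 was the lowest of the 4 libraries. Its log2 fold change, computed on log2(normalized count + 1) as KO minus WT, was 0.39 (SE 0.38, 95% interval -0.64 to 1.42, adjusted p = 0.442). Without WT replicate 2 it was -0.11, so its sign rested on that library.

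Igf2, an imprinted gene on chromosome 7 (142650766 to 142666816, minus strand), was far less abundant. It had WT values of 742.8 and 767.6 normalized counts and KO values of 610.0 and 1119, so the WT libraries lay close together and between the KO libraries. Its log2 fold change was 0.13 (SE 0.31, 95% interval -0.69 to 0.95, adjusted p = 0.748). It was 0.57 (adjusted p = 0.0239) without KO replicate 1 and -0.31 (adjusted p = 0.0991) without KO replicate 2. The antisense gene Igf2os shares 98 exon bases with Igf2, but it held at most 7.4 normalized counts in any library. Gm49394, which shares 3596 exon bases with Igf2 on the same strand in GENCODE M21, was not analysed here, so the count of Igf2 is uncertain to that extent. Levels of different genes are given as reads per kilobase of merged exons after scaling each library to its assigned reads (the per-length scale, in the units of RPKM). On it, Igf1 exceeded Igf2 by 8.71-fold and 4.2-fold in the WT libraries and by 8.3-fold and 6.35-fold in the KO libraries, ranges that overlapped.

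Igf1r, the signalling receptor, on chromosome 7 (67952827 to 68233668, plus strand), was lower in KO. The WT libraries held 588.9 and 749.9 normalized counts of it and the KO libraries 297.0 and 279.0. The KO values were below the WT values and within 1.06-fold of each other. The log2 fold change was -1.20 (SE 0.15, adjusted p = 0.0054), a level 2.3-fold higher in WT. Without WT replicate 2 the change was -1.03 and did not pass (adjusted p = 0.0644).

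Igf2r, on chromosome 17 (12682406 to 12769664, minus strand), had WT values of 4141 and 5156 normalized counts and KO values of 4883 and 4989. Both KO values lay between the WT values. The change was 0.10 on the log2 scale (SE 0.12, 95% interval -0.23 to 0.42, adjusted p = 0.556), and it was -0.06 without WT replicate 1. The noncoding RNA gene Airn runs antisense to Igf2r without sharing exon bases and held 273.4 to 297.7 normalized counts. On the per-length scale Igf2r exceeded Igf1r by 12.7-fold and 12.4-fold in the WT libraries and by 29.7-fold and 32.3-fold in the KO libraries. The groups did not overlap, but the normalized counts of 79.5% of all tested genes did not overlap either. With the longest transcript as gene length the excess was 9.03-fold and 8.83-fold in WT and 21.1-fold and 23.0-fold in KO. Igf1r passed the test and Igf2r did not, and the difference between their changes was not tested.

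Among the binding proteins, Igfbp4 and Igfbp5 were higher in KO, and Igfbp2 and Igfbp3 were lower by more than 2-fold. The 250 bases before the RefSeq start of these 4 genes (GRCm38.p6, 5′ to 3′) are shown because the genes moved in both directions and because Igfbp2 and Igfbp5 are neighbours on chromosome 1. Igfbp2 has a further start in RefSeq, and its upstream-most one is given. Capitals mark TATAAA (the TATA box) or GGGCGG (the GC box), searched on both strands together with CCAAT.
Igfbp4, chr11:99040994-99041243, plus strand: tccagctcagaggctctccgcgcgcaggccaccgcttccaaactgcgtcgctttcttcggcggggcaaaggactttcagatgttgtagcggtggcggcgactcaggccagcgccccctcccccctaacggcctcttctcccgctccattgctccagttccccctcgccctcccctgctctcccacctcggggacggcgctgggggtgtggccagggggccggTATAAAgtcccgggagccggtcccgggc
Igfbp5, chr1:72874866-72875115, minus strand: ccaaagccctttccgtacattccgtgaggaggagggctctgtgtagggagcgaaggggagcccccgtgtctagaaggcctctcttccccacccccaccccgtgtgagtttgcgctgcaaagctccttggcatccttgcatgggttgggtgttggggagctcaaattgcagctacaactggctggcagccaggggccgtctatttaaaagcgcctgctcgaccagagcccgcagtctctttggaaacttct
Igfbp2, chr1:72824230-72824479, plus strand: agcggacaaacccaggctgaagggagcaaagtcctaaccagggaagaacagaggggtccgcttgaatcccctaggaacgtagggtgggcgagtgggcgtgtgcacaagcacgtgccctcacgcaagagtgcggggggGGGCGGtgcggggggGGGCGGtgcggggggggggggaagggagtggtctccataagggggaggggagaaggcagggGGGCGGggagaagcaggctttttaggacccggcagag
Igfbp3, chr11:7213924-7214173, minus strand: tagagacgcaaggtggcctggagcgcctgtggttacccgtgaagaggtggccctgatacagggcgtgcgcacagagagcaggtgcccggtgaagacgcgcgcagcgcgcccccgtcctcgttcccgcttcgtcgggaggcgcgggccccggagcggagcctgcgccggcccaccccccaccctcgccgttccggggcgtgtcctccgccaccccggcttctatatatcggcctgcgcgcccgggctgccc

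TATAAA lay 28 bases before the start of Igfbp4, and GGGCGG occurred 3 times before Igfbp2. The windows of Igfbp5 and Igfbp3 held none of these exact motifs, and variants of the TATA box with other letters were not searched. Over all 10 members, which have 14 such windows, TATAAA was found for 2 (Igfbp4 and Igfbp6), GGGCGG for 5 (Igf2, Igf1r, Igf2r, Igfbp2 and Igfbp7) and CCAAT for 3 (Igf1, Igf2 and Igfbp6). Counted by window, 2 of the 14 held TATAAA, 6 GGGCGG and 3 CCAAT. Of 32851 windows of the same length over all genes, 12.4% held TATAAA, 32.7% GGGCGG and 33.8% CCAAT. These are matches of letters only. The bases G and C made up 69.2% of the window before Igfbp4, 58.8% before Igfbp5, 67.2% before Igfbp2 and 73.2% before Igfbp3, against a median of 52.4% over all windows.

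Igfbp4, on chromosome 11 (99041244 to 99054392, plus strand), encodes a binding protein that restrains IGF action until it is cut by PAPP-A. It had WT values of 12316 and 11052 normalized counts and KO values of 25717 and 29759, with every KO value above every WT value. It rose by 1.25 on the log2 scale (SE 0.12, adjusted p = 0.0030), a 2.37-fold difference. The fold change was 1.32 without WT replicate 1 (adjusted p = 0.0501) and 1.17 without WT replicate 2 (adjusted p = 0.0664), fits with fewer degrees of freedom in which the call was lost. The mature adipocyte markers rose by a median of 1.66 in the same libraries, and relative to the mean of that list, which takes the same amount off every gene, Igfbp4 was at -0.31.

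Igfbp5, on chromosome 1 (72857932 to 72874884, minus strand), encodes a binding protein that also attaches to the extracellular matrix. The WT libraries held 13584 and 14978 normalized counts of it and the KO libraries 40336 and 26029. The groups did not overlap, but the KO libraries differed from each other by 1.55-fold. It rose by 1.18 on the log2 scale (SE 0.24, adjusted p = 0.0183), a 2.27-fold difference, and was at -0.37 relative to the mean of the adipocyte markers. It was 1.11 without WT replicate 1 (adjusted p = 0.161) and 1.25 without WT replicate 2 (adjusted p = 0.153), again with the call lost. It was 0.87 without KO replicate 1 and 1.5 without KO replicate 2, and both passed.

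Igfbp2, on chromosome 1 (72824503 to 72852474, plus strand), lies tail to tail with Igfbp5, with 5457 bases between the annotated ends of the genes. It encodes a binding protein made by several tissues, and precursors of white fat cells secrete it. It had WT values of 275.1 and 372.2 normalized counts and KO values of 83.4 and 25.7, from 270, 400, 89 and 23 reads. The KO libraries were both below WT and differed from each other by 3.25-fold. The log2 fold change was -2.76 (SE 0.60, adjusted p = 0.0233), a level 6.77-fold higher in WT, which is the greatest change of the 10 genes in these libraries. It was -1.93 without KO replicate 2 and -3.59 without KO replicate 1, and both passed. Without WT replicate 1 it was -2.98 (adjusted p = 0.154) and without WT replicate 2 -2.54 (adjusted p = 0.204). The log2 ratio of Igfbp5 to Igfbp2 normalized counts within a library was 5.62 and 5.33 in WT and 8.90 and 9.93 in KO. The group means of this ratio differed by 3.94, which restates the changes of both genes and is not a separate result.

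Igfbp3, on chromosome 11 (7206086 to 7213923, minus strand), encodes the main IGF carrier of plasma. The WT libraries held 2431 and 2653 normalized counts of it and the KO libraries 947.3 and 909.4. The libraries of each group lay close together, and the groups were well separated. It fell by 1.45 on the log2 scale (SE 0.076, adjusted p = 0.00093), a level 2.73-fold higher in WT. It ran from -1.51 to -1.39 with a library left out, with adjusted p from 0.0052 to 0.0387, so that it was the single member that kept its call under every alternative planned. Igfbp1, a binding protein made mainly by the liver and outside the 10 genes, had 0 reads in all 4 libraries, which allows up to 3 reads in each. The log2 ratio of Igfbp4 to Igfbp3 within a library was 2.34 and 2.06 in WT and 4.76 and 5.03 in KO. That too restates the changes of both genes.

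Igfbp7, on chromosome 5 (77349240 to 77408041, minus strand), is abundant in blood vessels. It had WT values of 11002 and 10448 normalized counts and KO values of 8577 and 7622, a small difference without overlap. It fell by 0.41 on the log2 scale (SE 0.091, adjusted p = 0.0253), a level 1.33-fold higher in WT. Without WT replicate 1 it was -0.37 (adjusted p = 0.146), without WT replicate 2 -0.44 (adjusted p = 0.13) and without KO replicate 2 -0.32 (adjusted p = 0.0984). Endothelial markers took 0.0818% and 0.0976% of WT reads and 0.143% and 0.157% of KO reads, with 8 of 10 higher, 0 lower and a median of 0.78. Igfbp7 was thus lower in the libraries where these markers were higher. The smooth muscle markers were lower in the same libraries, with 9 of 10 lower and a median of -4.46. The part of either set of markers in the Igfbp7 values was not tested. Igfbp7 shares 85 exon bases with Polr2b on the other strand, which had WT values of 2260.9 and 2259.0 normalized counts and KO values of 2589.8 and 2642.3.

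Igfbp6, on chromosome 15 (102144362 to 102149511, plus strand), encodes a binding protein that prefers IGF2. The WT libraries held 3776 and 4559 normalized counts of it and the KO libraries 7755 and 3331. The KO libraries were the highest and the lowest of the 4. Its log2 fold change was 0.29 (SE 0.43, 95% interval -0.86 to 1.44, adjusted p = 0.603). It was 0.90 (adjusted p = 0.0263) without KO replicate 2 and -0.32 (adjusted p = 0.181) without KO replicate 1. Upk3b, a gene of the mesothelium that covers the fat pad, had WT values of 2271 and 4040 and KO values of 8866 and 1642, the same order of libraries as Igfbp6. The 9 mesothelial markers summed to 21215 and 29860 in WT and to 23861 and 4620 in KO. Of the 9 listed, 0 rose and 3 fell, the keratin genes Krt19, Krt8 and Krt18. The male tract markers were lower in the same KO libraries (median log2 fold change -8.17 over 12 tested). The part of that tissue in the keratin values was not tested. The 3 keratin genes weigh heavily in the sums, where Krt19 alone held 8364 and 11854 in WT and 2497 and 419.5 in KO. The sums thus do not show that the 6 other markers were each highest in KO replicate 1. The order of libraries of Igfbp6 was shared by 3 of the 9 (Upk3b, Wt1 and Upk1b). Msln, Lrrn4 and Muc16 were highest in KO replicate 1 too but lowest in WT replicate 1, and in the keratin genes the KO values were under the WT values. None was at 0 in all libraries, and their part in the Igfbp6 values was not tested.

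**Figure D2:**
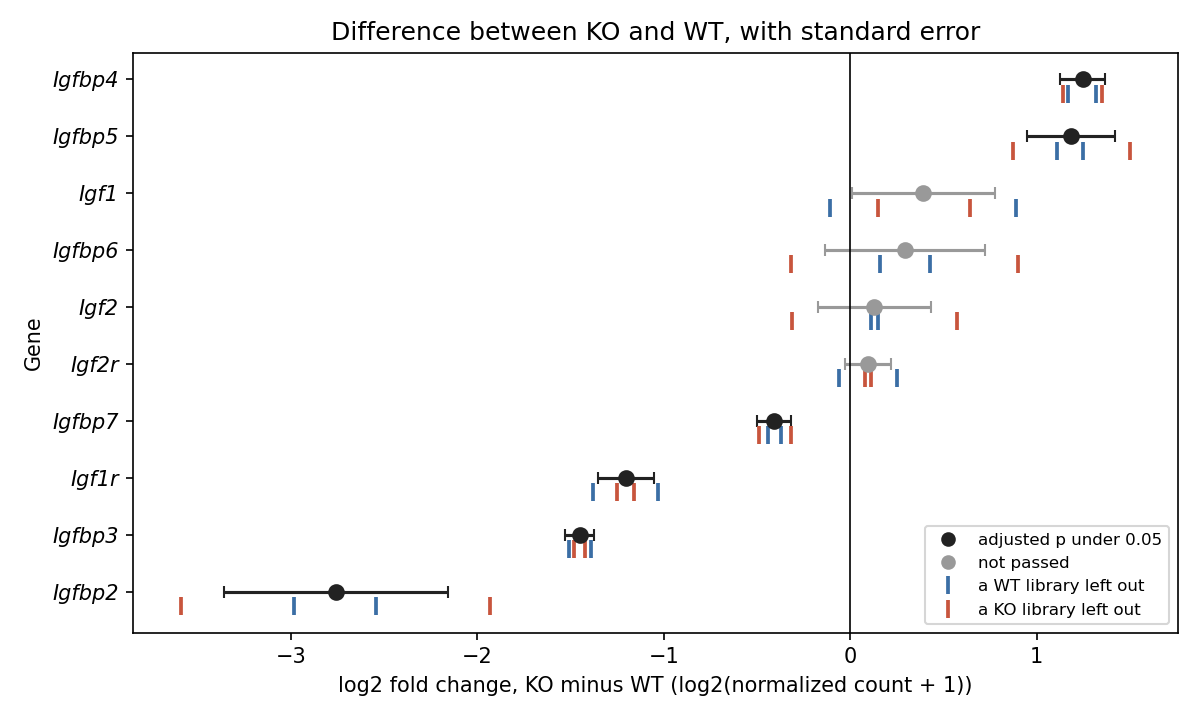
Log2 fold change of each gene, KO minus WT (x axis), with its standard error, dark where the adjusted p was under 0.05, and ticks under each point for the value with a library left out. The ticks stay on the same side of 0 for the 6 called genes and cross it for Igf1, Igf2, Igf2r and Igfbp6. In the 6 called genes the groups do not overlap, so leaving out a library cannot change the sign.

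The levels of different genes were compared on the per-length scale. In WT, Igfbp7 was the most abundant at 277 ± 5.54 (SD, n = 2 libraries), followed by Igfbp6 at 117 ± 17.5, Igfbp4 at 82.5 ± 4.95 and Igfbp5 at 74.2 ± 6.34. Igf1 (26.3 ± 12.1) and Igfbp3 (25.4 ± 1.99) overlapped, Igf2r followed at 15.6 ± 2.66, and Igfbp2 (5.48 ± 1.25), Igf2 (4.12 ± 0.163) and Igf1r (1.25 ± 0.232) were the lowest. In KO, Igfbp7 (183 ± 23.0), Igfbp4 (171 ± 10.3), Igfbp5 (152 ± 52.4) and Igfbp6 (138 ± 82.6) had overlapping ranges. Igfbp7 was above Igfbp5 and Igfbp6 in both KO libraries, and above Igfbp4 in KO replicate 1 but below it in KO replicate 2. Below them came Igf1 at 28.8 ± 5.63, Igf2r at 14.5 ± 0.398, Igfbp3 at 8.09 ± 0.579, Igf2 at 4.08 ± 1.54, Igfbp2 at 0.818 ± 0.637 and Igf1r at 0.468 ± 0.0407. The ranges of Igfbp2 and Igf1r overlapped in KO, and those of Igfbp2 and Igf2 did not in either group.

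The 6 binding proteins summed to 570 and 593 on the per-length scale in WT and to 757 and 547 in KO, so the total overlapped between groups. Igfbp7, whose product binds IGF only weakly, was the largest part of it in both WT libraries. On this scale Igfbp7 went down from WT values of 281 and 273 to KO values of 199 and 167. Igfbp4 went up from 86.0 and 79.0 to 164 and 178, and Igfbp5 from 69.7 and 78.7 to 189 and 115. Igfbp2 and Igfbp3 went down, and Igfbp6 overlapped. A total without Igfbp7 was not computed, so the overlap is not read for the other binding proteins. The shares of 5 of the 6 did not, but the normalized counts of 79.5% of all tested genes did not overlap either. The shares are parts of 1 total, so these are not separate results. Igfbp7 held 49.3% and 46.0% of the total in WT and 26.3% and 30.5% in KO. Igfbp4 held 15.1% and 13.3% in WT and 21.6% and 32.6% in KO, and Igfbp5 held 12.2% and 13.3% in WT and 24.9% and 21% in KO. Igfbp3 held 4.2% and 4.51% in WT but 1.12% and 1.41% in KO. Igfbp2 held 0.806% and 1.07% in WT but 0.167% and 0.0672% in KO. Igfbp6 held 18.4% and 21.8% in WT but 25.9% and 14.5% in KO, the single share of the 6 that overlapped. The summed binding proteins, Igfbp7 included, exceeded the summed ligands by 14.7-fold and 26.9-fold in WT and by 27.2-fold and 14.4-fold in KO, with no separation of the groups. This excess too was not computed without Igfbp7.

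**Figure D3:**
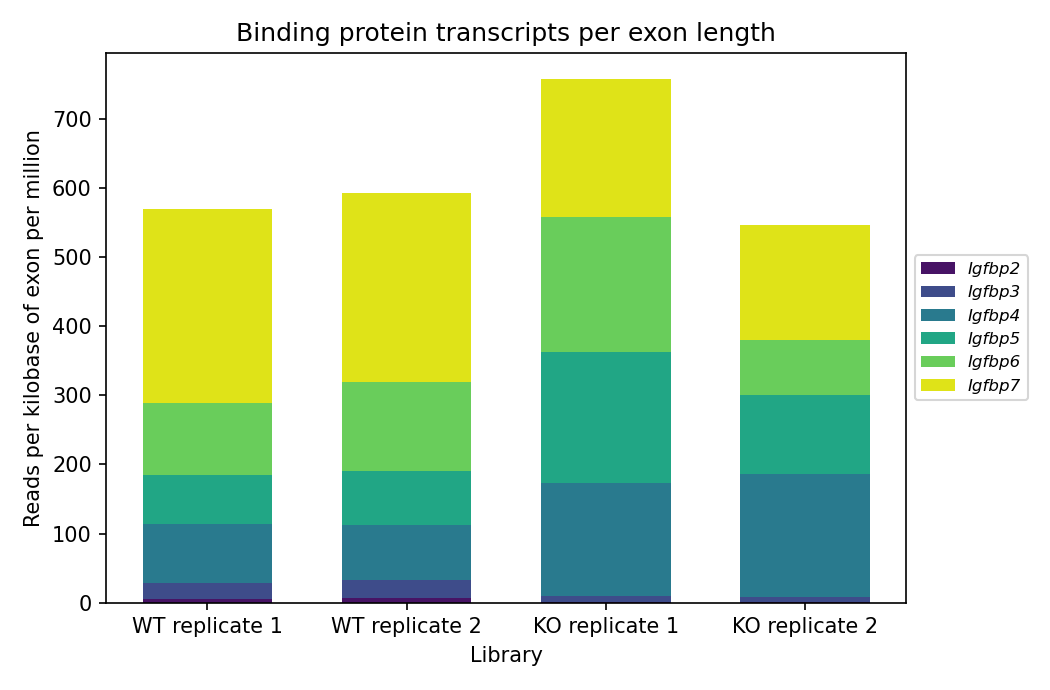
Stacked bars of the 6 binding proteins in each library (x axis), on the per-length scale in units of RPKM (y axis, from 0). Igfbp7 fills 46.0% or more of each WT bar and 30.5% or less of each KO bar, where Igfbp4 and Igfbp5 are wider.

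Genes that act with the axis were taken from 4 lists of 45 genes. Of these 38 were tested, 12 rose and 7 fell, with a median of 0.18. Over all tested genes 22.4% were called higher and 24.4% lower. The counts of these lists, together or singly below, were not tested against those shares. The growth hormone list holds the receptor that drives Igf1 transcription, its pathway and the circulating IGF complex, and 3 of 7 tested genes rose and 3 fell (median 0.47). Ghr, the growth hormone receptor, had WT values of 28937 and 17543 normalized counts and KO values of 68847 and 71385, a log2 fold change of 1.64 (SE 0.27, adjusted p = 0.0112). Stat5a and Stat5b, the transcription factors downstream of it, rose by 0.66 (adjusted p = 0.0172) and 0.47 (adjusted p = 0.0070). Their kinase Jak2 fell by 0.71 (adjusted p = 0.0122). The feedback inhibitors Cish and Socs2, which STAT5 induces, were lower. Cish fell by 2.98 (SE 0.37, adjusted p = 0.0052). Socs2 fell by 0.75 (SE 0.094, adjusted p = 0.0055), from 706.1 and 667.1 to 392.6 and 424.0. Cish had WT values of 1817 and 3215 and KO values of 241.7 and 385.0. The receptor and the STAT5 genes were higher in the same libraries in which both inhibitors were lower. Without WT replicate 2 none of these 6 passed, with adjusted p from 0.0586 (Jak2) to 0.0767 (Stat5a). Stat5b (0.0647) and Socs2 (0.0714) were also lost without WT replicate 1, and Jak2 (0.0549) and Stat5a (0.0719) without KO replicate 2. Igfals, the third subunit of the plasma complex, was singled out after its values were seen. It had WT values of 843.6 and 168.4 and KO values of 830.1 and 1626 (log2 fold change 1.62, SE 0.85, adjusted p = 0.187), the same order of libraries as Igf1.

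**Figure D4:**
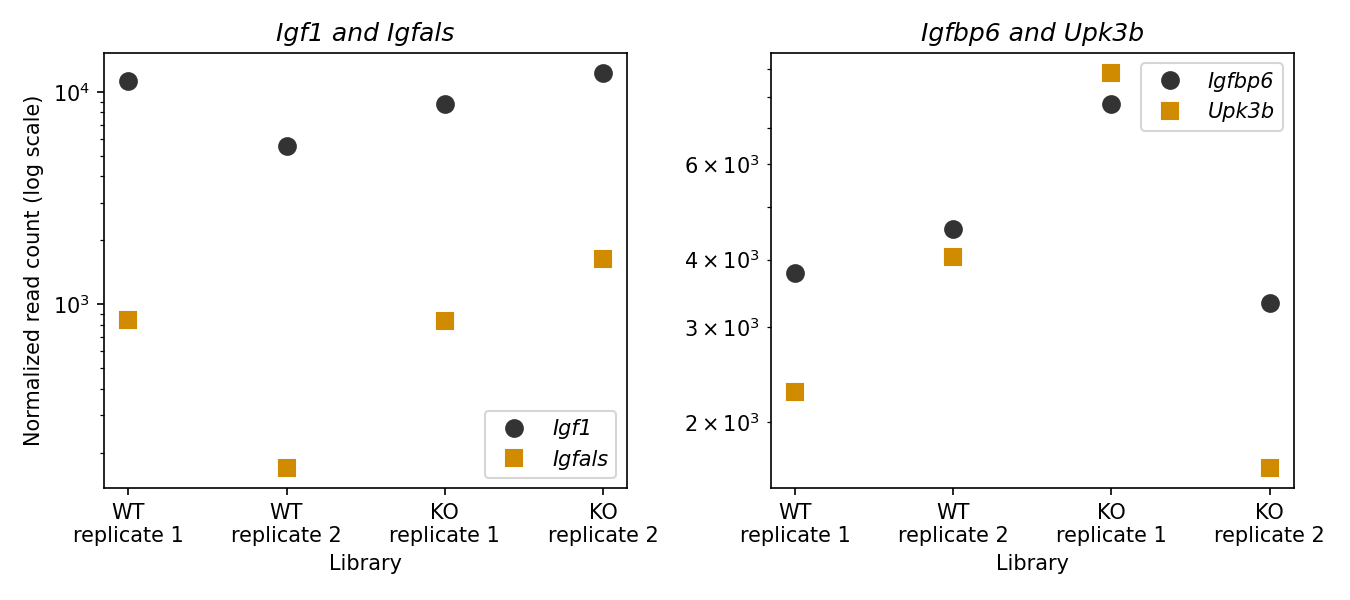
Normalized read counts on a log scale (y axis) in the 4 libraries (x axis) for Igf1 with Igfals and for Igfbp6 with Upk3b, pairs chosen after their values were seen. In each pair both genes order the libraries alike: WT replicate 2 is lowest and KO replicate 2 highest for Igf1 and Igfals, and KO replicate 2 is lowest and KO replicate 1 highest for Igfbp6 and Upk3b.

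Proteases that cut binding proteins, and their inhibitors, showed the greatest differences of the 4 lists. Of 10 tested genes 2 rose and 3 fell (median -0.18). Pappa, encoding the metalloprotease that cuts IGFBP4, had WT values of 1521 and 2017 normalized counts and KO values of 65.6 and 25.7, a level 41.6-fold higher in WT (log2 fold change -5.38, SE 0.48, adjusted p = 0.0025). Pappa2, whose product cuts IGFBP3 and IGFBP5, had WT values of 804.9 and 866.2 and KO values of 39.4 and 4.5 (-5.82, SE 0.99, adjusted p = 0.012). The stanniocalcins, secreted inhibitors of PAPP-A, moved apart. Stc1 fell by 1.99 (SE 0.33, adjusted p = 0.0113) and Stc2 rose by 1.29 (SE 0.22, adjusted p = 0.0115). Htra1, a secreted serine protease that cuts IGFBP5, had WT values of 2826 and 2711 and KO values of 7025 and 7744 (1.41, SE 0.078, adjusted p = 0.0010), and it kept its call under every alternative planned. Igfbp4 transcripts were thus higher in the libraries in which Pappa transcripts were lower. The WT libraries in which Pappa and Pappa2 were high are also those with the male tract markers (median log2 fold change -8.17 over 12 tested) and the smooth muscle markers (median -4.46 over 10), and their part in these falls was not tested. Leaving out WT replicate 1 or WT replicate 2 ended the calls of Pappa (adjusted p = 0.0583 and 0.0747), Pappa2 (0.129 and 0.146) and Stc1 (0.0844 and 0.133). For Stc2 it was 0.0688 without WT replicate 2 and 0.0516 without KO replicate 2.

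Of 17 receptor partners and signalling genes 6 rose and 0 fell (median 0.28). Irs2, a docking protein of the IGF1 and insulin receptors, rose by 1.00 (SE 0.073, adjusted p = 0.0017), from 1241 and 1183 normalized counts to 2517 and 2335. Grb10, an imprinted gene whose product dampens both receptors, rose by 1.13 (SE 0.11, adjusted p = 0.0031), from 2113 and 1787 to 4488 and 4046. Akt2, the kinase of insulin-stimulated glucose uptake, rose by 1.34 (SE 0.14, adjusted p = 0.0037), from 6348 and 5047 to 13441 and 15247. Insr, which encodes the insulin receptor and is closest to Igf1r in sequence, had WT values of 5773 and 5500 and KO values of 6772 and 6299 (0.21, SE 0.074, adjusted p = 0.0769). Insr was chosen after its values were seen. The difference between the changes of Igf1r and Insr was not tested. Grb10 (adjusted p = 0.0544) and Akt2 (0.0567) lost their calls without WT replicate 2.

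Of 8 genes listed at the Igf2 locus or as regulators of Igf2, 4 were tested, 1 rose and 1 fell (median -1.11). Plagl1, an imprinted transcription factor gene, had WT values of 2549 and 2254 normalized counts and KO values of 7034 and 5190 (1.33, SE 0.17, adjusted p = 0.0057). Its relative Plag1 had WT values of 60.1 and 67.9 and KO values of 16.9 and 22.3 (-1.67, SE 0.28, adjusted p = 0.0118). H19, the noncoding RNA that shares imprinting control with Igf2, had WT values of 158.9 and 113.5 and KO values of 15.9 and 68.1 (-1.98, SE 0.73, adjusted p = 0.0888, and -3.00 with adjusted p = 0.0122 without KO replicate 2). Leaving out WT replicate 1 or WT replicate 2 ended the calls of Plagl1 (adjusted p = 0.0748 and 0.101) and Plag1 (0.073 and 0.0945). Of the genes of the Igf2 mRNA-binding proteins, Igf2bp1 and Igf2bp3 held at most 3.1 and 23.3 normalized counts in any library and were not tested. Igf2bp2, of the same family and named after its values were seen, had WT values of 602.2 and 359.1 and KO values of 326.1 and 308.0. It did not pass (-0.55, SE 0.27, adjusted p = 0.163).

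**Figure D5:**
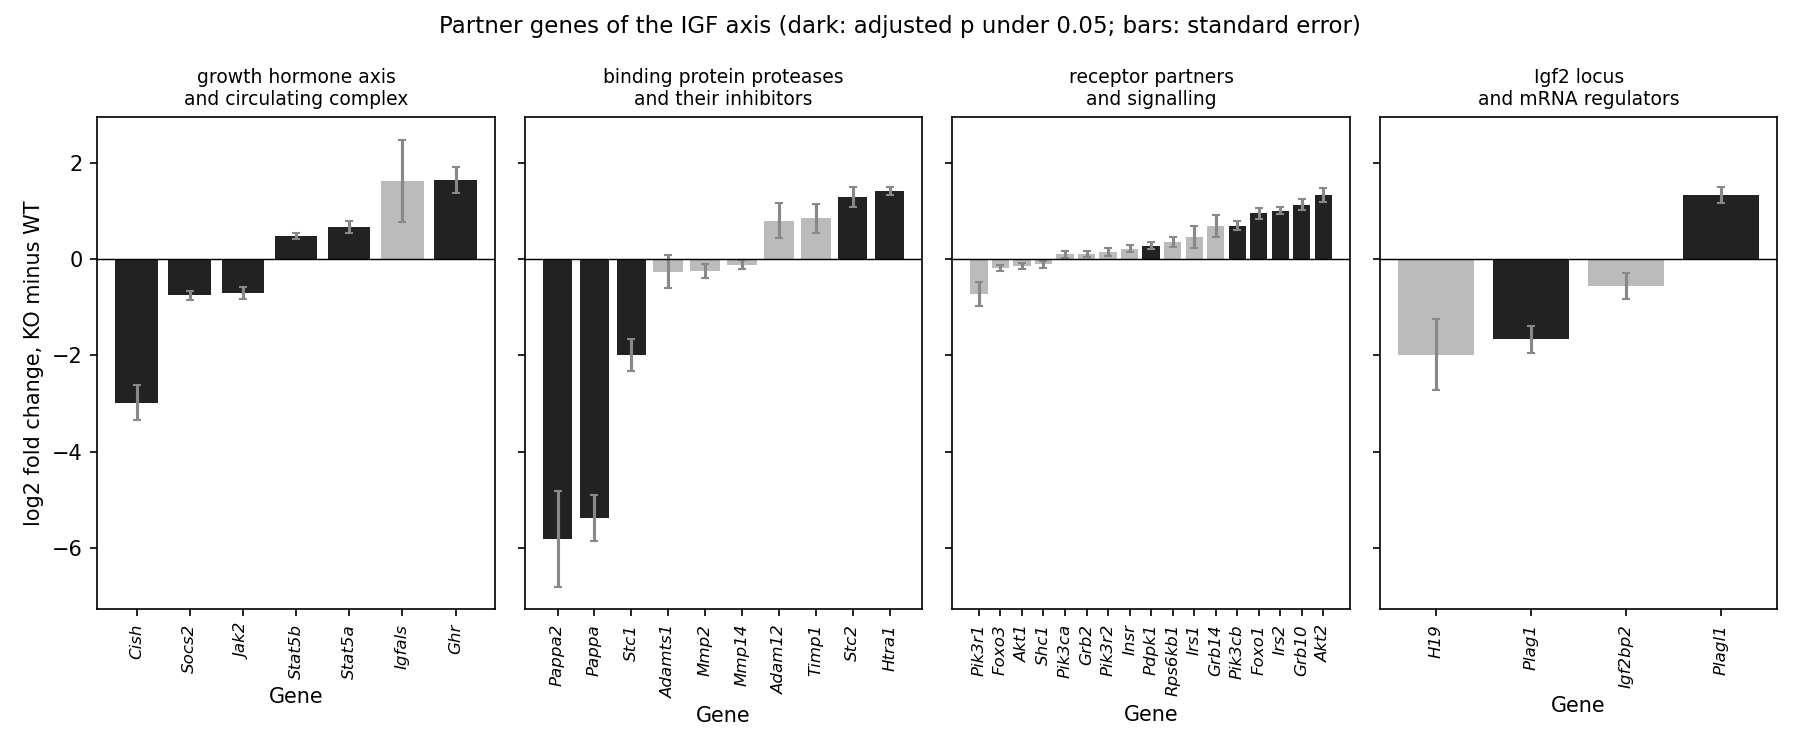
Log2 fold change, KO minus WT (y axis), with its standard error, of the tested genes of the 4 partner lists (x axis), dark where the adjusted p was under 0.05. Pappa and Pappa2 lie below -5, and the signalling panel has 6 called genes, all above 0.

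The genes whose profile over the 4 libraries lay nearest to a ligand were found by the root mean square difference of log2(normalized count + 1), centred on each gene's mean, among 14030 genes averaging at least 50. For Igf1 they were Gm10263 (0.0624), Zfp69 (0.0851) and Ccdc85a (0.0946). Zfp69, for example, had WT values of 180.3 and 78.2 and KO values of 134.0 and 171.8, low in WT replicate 2 as Igf1 was. For Igf2 they were 2810032G03Rik (0.0391), Dusp15 (0.0667) and Ldb2 (0.0695), and Ldb2 had WT values of 715.2 and 695.0 and KO values of 610.9 and 993.1. These names describe 4 libraries only.

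Other cell types that make members of the axis were read from their markers. Fibroblast and progenitor markers took 0.462% and 0.481% of WT reads and 0.472% and 0.65% of KO reads, and 2 of 10 rose and 0 fell (median 0.06). Dcn, encoding the matrix proteoglycan decorin, had WT values of 53843 and 51930 and KO values of 61743 and 47041 (adjusted p = 0.915). Col3a1 had WT values of 43896 and 35722 and KO values of 75760 and 56708 (0.73, SE 0.22, adjusted p = 0.0532). The 2 that rose were Ly6a (0.40, adjusted p = 0.0363) and Fn1 (1.07, adjusted p = 0.0106). Macrophage markers took 0.0874% and 0.0887% of WT reads and 0.151% and 0.17% of KO reads, and 10 of 11 rose (median 1.10). Igf1, which macrophages also express, did not pass in the same comparison, but its 95% interval of -0.64 to 1.42 includes the macrophage median. The part of these markers in the values of the members was not tested.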

How the data were processed

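RNA of 4 libraries was grouped by the genotype labels (2 WT, 2 KO). Per the submitters' processing notes the build was GRCm38, and DESeq2 1.4.5, HTSeq 0.5.3, TopHat2 2.0.10 and CASAVA 1.8 were named as tools. The sources used here do not say whether counting used strand. The values the authors deposited are a signal per gene (normalized counts, that is reads over a size factor). The authors' comparison, also deposited, gives each gene's log2 fold change, p-value and a score (its test statistic). Dividing by the value of 1 read gave whole reads for 100% of values within 0.01. Replicates differed beyond sampling noise (chi-square per degree of freedom 52.3 in WT and 36.8 in KO).

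All genes with a mean of 10 or more were fitted with limma 3.58.1 (R 4.3.3) after adding 1 to the normalized count and taking log2, with the prior variance trended on intensity. Benjamini-Hochberg adjustment ran over all of them. The pseudocount understates changes of low genes. Per-length levels used recovered reads and merged exons of GENCODE M21 (GRCm38), which matched 37607 of 39179 genes by ID. Promoter sequences were from RefSeq (GRCm38.p6), for all 10 members. The count tests edgeR 4.0.16 and DESeq2 1.42.0 were run on recovered reads with the authors' size factors. The tests were checked on simulated data.

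The members, gene lists and tests were chosen with earlier results of these data known. Besides the members, the rule names the 3 partners of smallest p and any direction with 5 or fewer calls in each list, the 3 nearest profiles per ligand, and the 2 most abundant markers of each cell type. Apart from Dcn and Upk3b, it named the markers Lpl at a mean of 325307 normalized counts over the 4 libraries and Fabp4 at 295695. It also named Crisp1 at 169637, Adam7 at 4004, Myh11 at 98690, Mylk at 59545, Col3a1 at 53021 and Lyz2 at 14069. Csf1r at 5585, Cdh5 at 8973, Pecam1 at 8155 and Krt19 at 5784 complete the list. The settings varied were the pseudocount (0.5 or 5), the filter (none, or averages from 50), the scaling (TMM or upper quartile), the tool, robust moderation, a block for replicate number, the omission of each library, and the gene length (longest transcript). Leaving out a library leaves its group with 1, assumed to vary like the other group.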

Additional observations from a re-analysis of the deposited data

How the results depend on the processing

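With all 4 libraries, the counts of members called stayed at 2 higher and 4 lower under each other pseudocount, filter, scaling, tool, moderation and block, where Igfbp7 was at the threshold (adjusted p = 0.04999 with the block). The count tests called 3619 genes higher and 3972 lower (edgeR) and 3617 and 3892 (DESeq2), against 3735 and 4074 in limma. With a library left out, the members called higher ran from 0 to 3 and lower from 1 to 4, the partner genes from 2 to 11 and from 0 to 7, and all genes from 524 to 2846 and from 1061 to 3434. Without WT replicate 1 the members gave 0 higher and 2 lower, and without WT replicate 2 they gave 0 and 1. Such fits have fewer samples. Signs reversed for Igf1 (-0.11 without WT replicate 2, up to 0.89), Igf2 (-0.31 without KO replicate 2, up to 0.57), Igf2r (-0.06 without WT replicate 1, up to 0.25) and Igfbp6 (-0.32 without KO replicate 1, up to 0.90). The within-library ratio of Igf1 to Igf2, 0.26 higher in KO, ran from -0.26 without WT replicate 2 to 0.79, and that of Igfbp5 to Igfbp4, -0.06, ran from -0.48 to 0.36 without KO replicate 2 and was 0.09 without WT replicate 2. The cause of these was not tested. Relative to the mature adipocyte markers, a scaling chosen after seeing the data that moves the median of all genes to -1.56, Igfbp4 was at -0.31 and Igfbp5 at -0.37. This takes the same amount off every gene, so any gene that rose by less than that list changes sign by construction, and nothing particular to these genes is read from it. The replicate numbers do not mark a shared animal or day in the labels, and the deviations of same-numbered libraries correlated at -0.009 over genes. With the replicate block the calls were 2 and 4 among members, 11 and 7 among partner genes, and 2737 and 3339 among all genes. Igfbp2, with 23 to 400 reads a library, is the member that depth limits most.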
